A study of Mus musculus with 6 samples.

Results

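The genes described here encode the synaptic vesicle and release machinery. They are 38 genes, taken as the rows of the deposited table whose gene symbol equals a name on a list of synaptotagmins, synapsins, SV2 proteins, synaptophysin, SNAREs, complexins, Rab3 GTPases and active zone proteins. All 38 symbols were found among 55416 rows, each once. After a filter on low counts 37 were tested. Cplx3, the complexin of ribbon synapses, was left out with 0, 3 and 2 reads in the wild-type libraries and 0, 0 and 3 reads in the double knockout libraries. The tissue was the ganglionic eminence, the swelling of the ventral embryonic forebrain that gives rise to striatal neurons and cortical interneurons, at E13.5 (days of embryonic development). One group of 3 libraries came from embryos in which both Dlx1 and Dlx2, genes for homeodomain transcription factors, were knocked out, and the other group of 3 from wild-type littermates. The allele, the strain, the sex of the embryos and whether a library pooled embryos are not given in the sources used here, so the p-values measure the spread between these libraries.

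A synaptic vesicle is filled with transmitter, tethered to the presynaptic membrane by Rab3 and the proteins of the active zone, primed by Munc13, and fused by a complex of SNARE proteins. Synaptotagmins with calcium-binding C2 domains couple fusion to calcium entry, and complexins bind the assembled SNARE complex and hold it ready. Many of these genes are switched on as neurons are born, before synapses form, so the midgestation eminence contains their transcripts in its young neurons beside many dividing progenitors that lack most of them.

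Total counts ranged from 56618090 to 70114173 per library. Dlx2 was at 281.8 to 313.3 CPM (counts per 1000000, with library sizes scaled by TMM, a trimmed mean) in the wild type and at 7.50 to 11.0 CPM in the double knockout, and Dlx1 at 434.0 to 445.7 and 74.9 to 94.0 CPM, so no library went against its label. Double knockout replicate 3 stood apart from the other double knockout libraries. Per gene, a chi-square statistic of 13.1 separated double knockout replicates 1 and 2, and 36.4 and 29.7 separated replicate 3 from each of them. Pairs of wild-type libraries stood at 20.4 to 21.7. The Pearson correlation of log2 CPM did not set replicate 3 apart, at 0.989 for each double knockout pair. It held the lowest of the 3 double knockout values for 29 of the 37 tested genes of the release machinery (78.4%), against 38.9% of all tested genes. The summed level of Y-linked genes was 207.1 to 213.9 CPM in 1 wild-type and 2 double knockout libraries and at most 0.171 CPM in the others. Where leaving out replicate 3 moved a log2 fold change printed here by over 1.5 times, both values are given. Markers of other cell types moved with genotype. The summed level of 13 pan-neuronal genes was 8083 to 8901 CPM in the wild type and 6720 to 7920 CPM in the double knockout, and that of 8 neural progenitor genes was 2646 to 2992 and 3082 to 3652 CPM. Of these lists, 1 of 13 pan-neuronal genes was called lower (Elavl3) and 1 of 8 progenitor genes higher (Hes5). Over all genes tested, 1.34% were called lower and 1.34% higher. All 4 GABAergic neuron genes were called lower, with sums of 643.9 to 664.2 and 304.5 to 322.1 CPM. Of 9 genes listed as cortical excitatory, 2 were called lower, Neurod2 and Bcl11b. Fitted values were below 0 for 8 of the 9, against 50.5% of all genes. For 7 of the 9 the groups did not overlap and the double knockout was lower, against 10.2% of all genes. The list had sums of 1726 to 1775 and 1260 to 1344 CPM. Bcl11b was the highest of the 9, with a wild-type mean of 779.4 CPM and a double knockout mean of 536.9 CPM. Whether the fall of this sum reflects cortical excitatory neurons was not tested. Among 5 oligodendrocyte precursor genes 4 were called higher, and 0 of 15 endothelial, microglial and blood genes were called. No marker of these lists was at 0. The part of these shifts in the results was not tested, and in bulk tissue fewer cells of a type cannot be told apart from less RNA per cell.

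The comparison asked which release machinery genes differ without Dlx1 and Dlx2. A gene was called different at a Benjamini-Hochberg adjusted p under 0.05, adjusted over all 23628 genes tested, in edgeR's quasi-likelihood test. Of the 37 tested genes, 5 were called, against 2.68% of all genes (and 3.57% of those averaging 1 CPM or more). Cplx2 and Syt13 were higher, where 1.34% of all genes were higher, and Syt6, Cplx1 and Snap25 were lower, where 1.34% were lower. An unadjusted p under 0.05 was found for 14 of the 37, against 13.3% of all genes. Scaling by total count in place of TMM moved the split of all calls from 50% to 60.4% higher and left 4 of the 5 genes called, without Snap25.

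The other 32 genes did not pass. Their log2 fold changes, double knockout minus wild type, ran from -0.51 (Syn2) to 0.72 (Syt10), and the 95% interval lay within a 1.5-fold change in either direction for 22 of them. Over the 37 genes, 25 had a fitted value below 0 and the median was -0.16, beside 50.5% and -0.0016 over all genes tested. Without double knockout replicate 3, 19 of 37 were below 0, against 12338 of all 24230 genes tested without it. The median of the 37 was -0.016, beside -0.0040 over all genes. In that fit 6 genes were called (16.2%, against 3.09% of all genes): the same 5 and Syt4. Without that library the lean of the list towards lower values was thus small, while the 5 calls held. The lean was not recomputed without each other library. The 3 libraries of each group did not overlap for 15 of the 37 genes. Of these, 11 were lower in the double knockout, against 10.2% of all genes, and 4 were higher, against 9.3%.

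**Figure D1:**
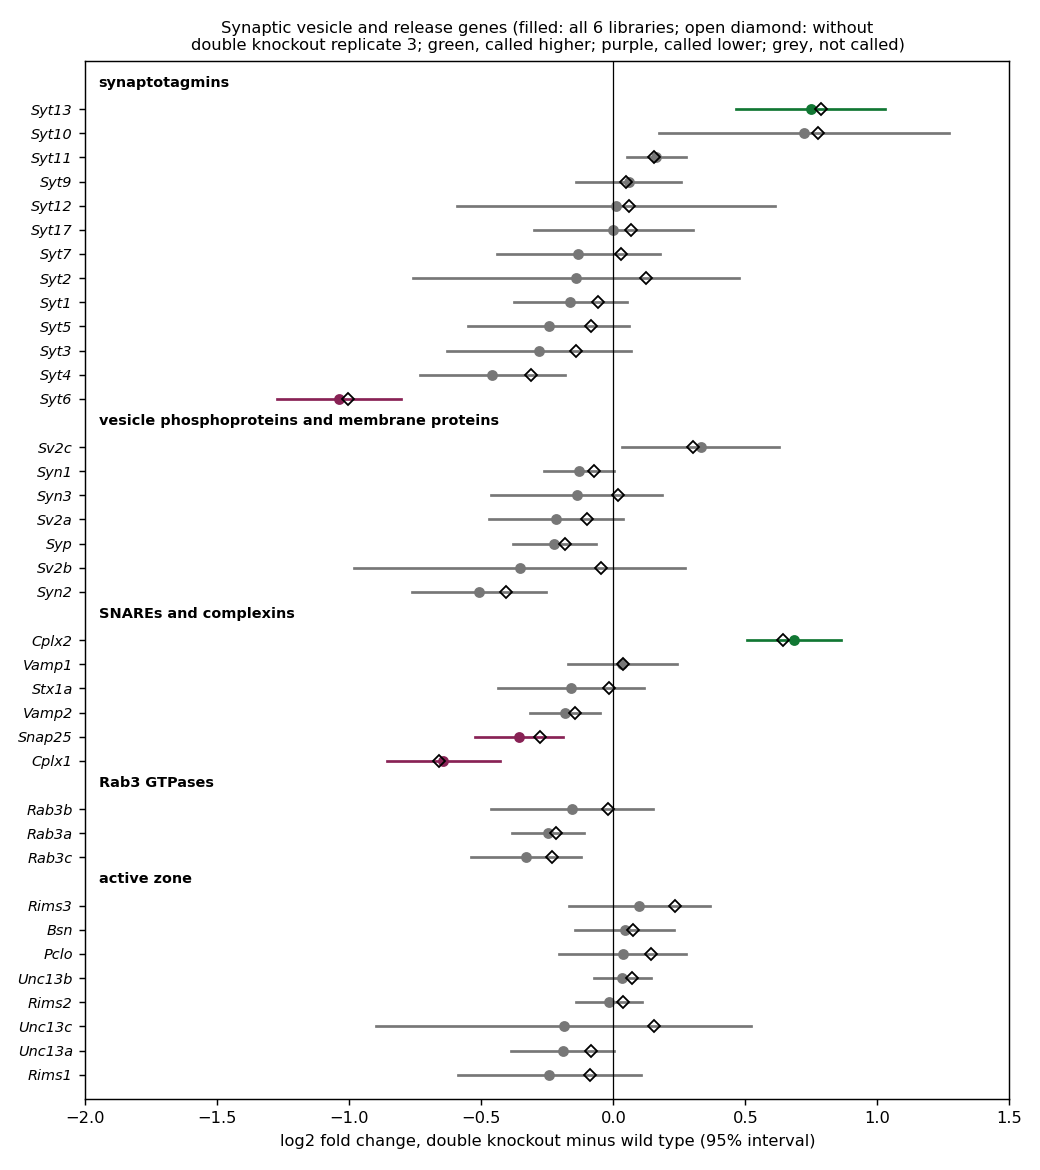
Log2 fold change (double knockout minus wild type) of the 37 tested genes, grouped by role, with 95% intervals from edgeR's quasi-likelihood fit. Filled points use all 6 libraries and open diamonds leave out double knockout replicate 3, which moves most grey points towards 0 and leaves Syt6, Syt13, Cplx1 and Cplx2 close to their places.

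The complexins, small soluble proteins that clamp and activate the SNARE complex, moved in opposite directions. Cplx2 (ENSMUSG00000025867), the complexin that is widespread in forebrain, was at 235.4, 202.9 and 206.5 CPM in wild-type replicates 1 to 3 and at 351.9, 316.6 and 368.0 CPM in the double knockout. Every double knockout library lay above every wild-type library. Its log2 fold change was 0.68 ± 0.0784 SE (edgeR adjusted p = 0.00255), an increase to 160.7% of the wild-type mean. Cplx1 (ENSMUSG00000033615), its paralogue, was at 36.9, 32.2 and 31.9 CPM in the wild type and at 23.2, 19.1 and 22.2 CPM in the double knockout, again without overlap. It fell to 63.9% of the mean wild-type level, a log2 fold change of -0.65 ± 0.0937 SE (edgeR adjusted p = 0.00884). The balance between the paralogues shifted in each library. The ratio of Cplx2 to Cplx1 CPM was 6.39 ± 0.0848 in the wild type and 16.1 ± 0.821 in the double knockout (SD, n = 3 each). Per kb of exon, Cplx1 made up 25.8% to 26.3% of the summed complexin level in wild-type libraries, against 11.9% to 12.9% in double knockout libraries. Neither gene has exons that overlap another gene in GENCODE M21.

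**Figure D2:**
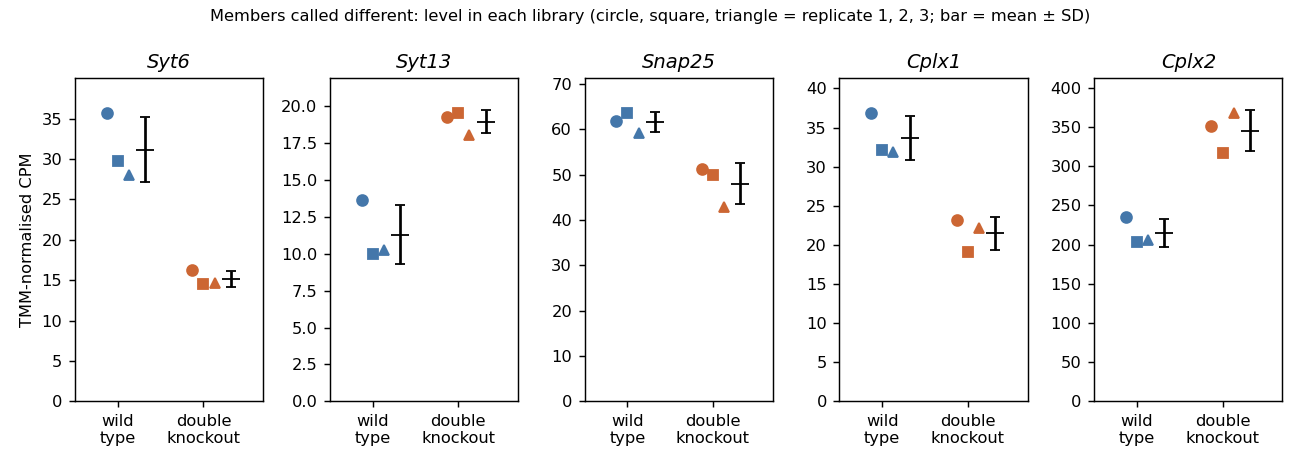
TMM-normalised CPM of the 5 called genes in each library, wild type in blue and double knockout in orange, with the mean ± SD of 3 libraries as a bar; each axis starts at 0. The groups do not overlap for any of the 5, and double knockout replicate 3 (triangle) is lowest of its group for Snap25 and Syt13 and highest for Cplx2.

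The sequences before the annotated starts of Cplx1 and Cplx2 are shown because these paralogues moved apart, and that of Syt6 because it had the largest change of the list. They are the 250 bases before the start in RefSeq's GRCm38.p6 annotation, 5′ to 3′ on the gene's strand, in lower case. Capitals mark matches to TAATTA, the core read by DLX and many other homeodomain proteins, and to TTCAGCACC and GGACAG, the left and right parts of RE1, the element bound by REST, a repressor of neuronal genes. Both strands were searched, and the motifs share no overlap in these windows. The Cplx1 window is chr5:108550028-108550277 on the minus strand, the Cplx2 window chr13:54302306-54302555 on the plus strand, and the Syt6 window, the farthest upstream of 3, chr3:103574995-103575244 on the plus strand.
Cplx1: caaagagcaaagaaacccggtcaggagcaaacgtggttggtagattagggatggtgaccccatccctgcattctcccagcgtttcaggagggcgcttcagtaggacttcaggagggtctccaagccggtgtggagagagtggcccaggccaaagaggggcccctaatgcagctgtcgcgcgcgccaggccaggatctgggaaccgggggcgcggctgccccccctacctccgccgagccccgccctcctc
Cplx2: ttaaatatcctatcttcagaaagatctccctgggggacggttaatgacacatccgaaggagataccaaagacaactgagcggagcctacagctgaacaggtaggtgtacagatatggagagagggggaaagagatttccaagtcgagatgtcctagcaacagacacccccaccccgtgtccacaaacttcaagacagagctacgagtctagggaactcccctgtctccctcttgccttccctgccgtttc
Syt6: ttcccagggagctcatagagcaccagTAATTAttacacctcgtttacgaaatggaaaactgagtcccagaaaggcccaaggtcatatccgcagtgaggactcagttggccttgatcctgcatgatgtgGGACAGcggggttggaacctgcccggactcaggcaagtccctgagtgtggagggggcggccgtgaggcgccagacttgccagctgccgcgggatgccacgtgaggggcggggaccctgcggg
The Cplx1 and Cplx2 windows held none of the 3 motifs. The bases just after the annotated start were found in a GENCODE M21 transcript for Syt6 but not for Cplx1 or Cplx2. These 2 windows differed in GC content, at 64.8% and 50.8%. RefSeq windows were found for 28 of the 38 genes, 37 windows in all. TAATTA was in 1 of the 37, the Syt6 window printed here, and in 4.84% of the 32851 windows of all genes. TTCAGCACC was in 1 of the 37, that of Syn1, and in 0.301% of all windows. GGACAG was in 10 of the 37, from Syt1, Syt2, Syt6, Syt11, Sv2b, Rims3 and Unc13a, and in 18.7% of all windows. A match describes letters in the window and not a bound site.

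The SNAREs themselves, the proteins whose coiled complex drives fusion, differed less than the complexins. Snap25 (ENSMUSG00000027273), the plasma membrane SNARE with both of its coils in 1 protein, was at 61.8, 63.6 and 59.3 CPM in the wild type and at 51.3, 49.8 and 43.0 CPM in the double knockout. The groups did not overlap, and replicate 3 was the lowest. Snap25 fell to 78.0% of the mean wild-type level, a log2 fold change of -0.36 ± 0.0734 SE (edgeR adjusted p = 0.0416). This call was near the threshold and was lost in 8 of 14 alternatives, where the edgeR adjusted p reached 0.156, although without double knockout replicate 3 it held at a log2 fold change of -0.28 with an adjusted p of 0.0290. Vamp2, the vesicle SNARE, was the highest per kb of this group among genes that did not pass. It was at 172.1, 154.4 and 172.3 CPM in the wild type and at 149.7, 149.6 and 139.7 CPM in the double knockout. These values did not overlap, but the log2 fold change of -0.18 (95% interval -0.32 to -0.051) had an edgeR adjusted p of 0.188. Its paralogue Vamp1 was far lower, at 6.81 to 7.20 CPM in the wild type and 6.92 to 7.29 CPM in the double knockout. Stx1a, the plasma membrane partner of Snap25, overlapped between groups, at 22.3 to 23.4 and 16.5 to 23.1 CPM, with replicate 3 the lowest.

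Of the 13 synaptotagmins, 1 was lower, 1 was higher and 11 did not pass, where 1.34% of all genes were lower and 1.34% higher. Syt6 (ENSMUSG00000027849), which with Syt3 and Syt10 belongs to a subgroup that forms disulphide-linked dimers, changed most. It was at 35.7, 29.8 and 28.0 CPM in the wild type and at 16.3, 14.6 and 14.6 CPM in the double knockout, with no overlap. Syt6 fell to 48.6% of the mean wild-type level, a log2 fold change of -1.04 ± 0.103 SE (edgeR adjusted p = 0.00125). A pseudogene on the opposite strand, Atg4a-ps, overlaps 8.67% of its exon bases, and whether counting used strand is not given in the sources used here. Syt13 (ENSMUSG00000027220), a synaptotagmin whose C2 domains lack the residues that bind calcium, was at 13.6, 10.004 and 10.2 CPM in the wild type and at 19.2, 19.5 and 18.0 CPM in the double knockout. It rose to 167.8% of the mean wild-type level without overlap, a log2 fold change of 0.75 ± 0.123 SE (edgeR adjusted p = 0.0160). The call was lost in 4 of the 6 fits that left out 1 library, with an edgeR adjusted p of at most 0.0659, and the log2 fold change stayed between 0.67 and 0.90 across 14 alternatives. The ratio of Syt6 to Syt13 CPM, not corrected for exon length, went from 2.78 ± 0.181 in the wild type to 0.801 ± 0.0499 in the double knockout (SD, n = 3 each). The pair joins the called synaptotagmins of opposite direction, so a shift of this ratio follows from the calls. Per kb of exon, Syt6 was at 4.81 to 6.13 CPM in wild-type libraries and Syt13 at 2.66 to 3.62. In double knockout libraries Syt6 was at 2.503 to 2.792 CPM per kb and Syt13 at 4.799 to 5.188.

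The other synaptotagmins include the calcium sensors of fast release. Syt1, the main sensor of forebrain synapses, was at 176.7, 155.0 and 162.6 CPM in the wild type and at 164.8, 150.4 and 126.4 CPM in the double knockout. These ranges overlapped, and the 95% interval of its log2 fold change was -0.38 to 0.052. Syt2, the sensor typical of the hindbrain, was near 3 CPM in both groups, at 2.23 to 3.29 and 1.60 to 3.17 CPM. Syt9, another fast sensor, had a log2 fold change of 0.058 with an interval of -0.14 to 0.26. Syt7, the slow sensor with high calcium affinity, was at 52.3 to 60.9 CPM in the wild type and at 56.2, 57.9 and 39.4 CPM in the double knockout, where replicate 3 alone was low. Syt3 and Syt5 also overlapped between groups, with log2 fold changes of -0.28 and -0.25 over all libraries and of -0.14 and -0.086 without that library.

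Syt4 and Syt11, related synaptotagmins that do not act as calcium triggers of fast release, were the most abundant of the family per kb. Syt11 was at 284.4, 289.9 and 298.7 CPM in the wild type and at 318.1, 326.4 and 332.5 CPM in the double knockout. The groups did not overlap, but its log2 fold change of 0.16 ± 0.0493 SE did not pass (edgeR adjusted p = 0.168). Syt4 was at 140.6, 133.6 and 121.8 CPM in the wild type and at 105.4, 106.4 and 76.3 CPM in the double knockout, and the groups were again separate. The fitted difference was -0.46 ± 0.12 SE on the log2 scale (edgeR adjusted p = 0.106). Without double knockout replicate 3, whose value was the lowest, it was called at a log2 fold change of -0.31 and an edgeR adjusted p of 0.0343. An opposite-strand gene overlaps 14.5% of the exon bases of Syt4. The remaining members were scarce. Syt10 was at 0.358 to 0.427 CPM in the wild type and 0.605 to 0.709 CPM in the double knockout, with a log2 fold change of 0.72 ± 0.24 SE (edgeR adjusted p = 0.216). Syt12 and Syt17 had log2 fold changes of 0.011 and -0.0014, but their 95% intervals reached from -0.59 to 0.61 and from -0.30 to 0.30. Without replicate 3 these log2 fold changes were 0.059 and 0.066.

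**Figure D3:**
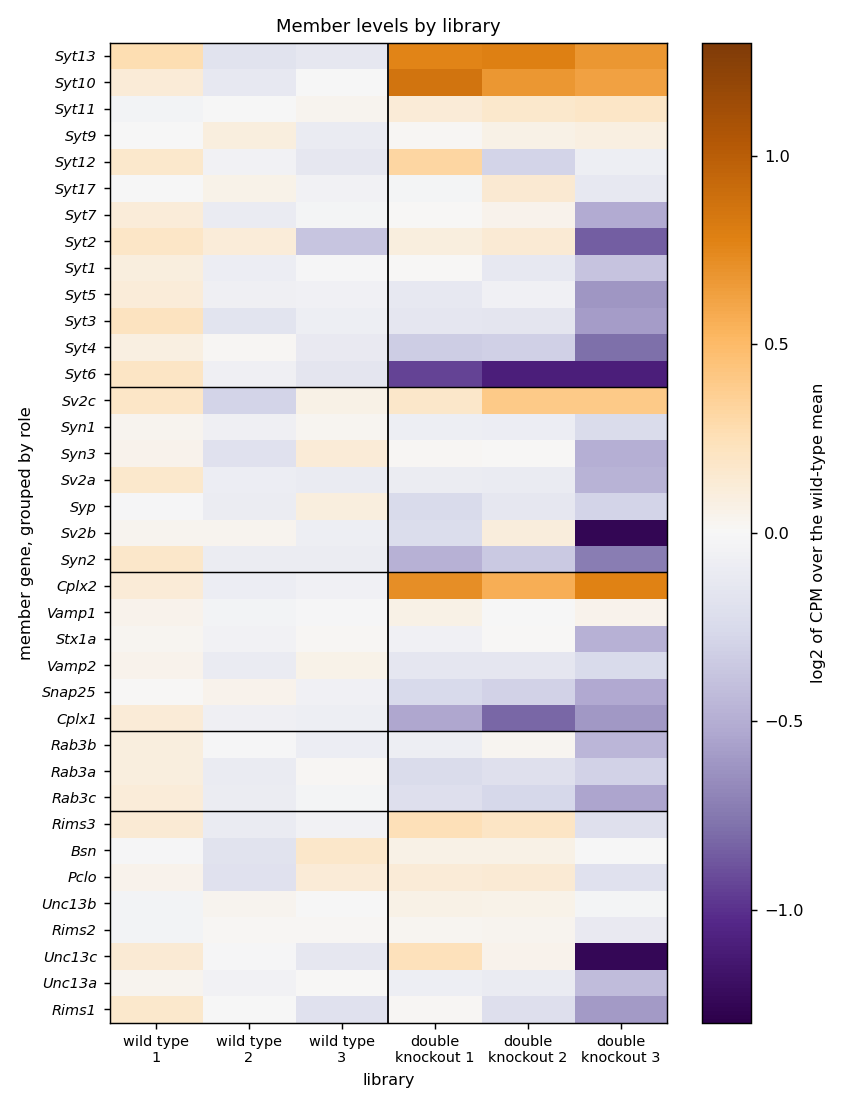
Level of each of the 37 genes in each library as log2 of its CPM over the wild-type mean, with genes grouped by role (synaptotagmins, vesicle proteins, SNAREs and complexins, Rab3, active zone, from top to bottom). Syt6 and Cplx1 are low and Syt13, Syt10 and Cplx2 are high in all 3 double knockout columns, while Sv2b and Unc13c are lowest in double knockout replicate 3.

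Of the 7 genes for synapsins and vesicle membrane proteins, 0 were called by edgeR, against 2.68% of all genes. An unadjusted p under 0.05 was found for 3, against 13.3%. In DESeq2, which called 4.92% of all genes, 1 of the 7 was called, Syn2, lower. Synapsins are phosphoproteins that hold vesicles in the reserve pool. Syn1, with the highest mean per kb of the 7 though its libraries overlapped those of Sv2a, was at 84.3, 78.6 and 83.6 CPM in the wild type and at 78.2, 77.4 and 69.9 CPM in the double knockout. The groups were separated only narrowly, and the log2 fold change of -0.13 (95% interval -0.26 to 0.0037) had an edgeR adjusted p of 0.393. It was -0.073 without replicate 3. Syn2 came closest to the threshold of the 32 release genes that missed it. It was at 42.3, 35.2 and 35.2 CPM in the wild type and at 26.9, 29.5 and 22.8 CPM in the double knockout, a log2 fold change of -0.51 ± 0.111 SE (edgeR adjusted p = 0.0542). Syn3 overlapped between groups, with a log2 fold change of -0.14 that became 0.017 without replicate 3. Exons of Timp3, on the opposite strand, overlap 14.1% of the exon bases of Syn3. Syp, which encodes the vesicle protein synaptophysin, was at 49.8, 47.0 and 53.7 CPM in the wild type and 42.2, 45.6 and 40.9 CPM in the double knockout. It did not overlap and did not pass, at a log2 fold change of -0.22 ± 0.0692 SE (edgeR adjusted p = 0.177).

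The SV2 genes encode transporter-like glycoproteins of the vesicle membrane, and their values pointed in different directions. Sv2a, the main form of brain, was at 102.5 to 124.3 CPM in the wild type and at 103.0, 102.1 and 79.4 CPM in the double knockout. Sv2b was at 19.9 to 21.5 CPM in the wild type and at 17.9, 22.5 and 8.79 CPM in the double knockout, so that its log2 fold change of -0.36 became -0.046 without replicate 3. Sv2c, a form enriched in the basal ganglia, was at 13.3, 9.55 and 12.2 CPM in the wild type and at 13.2, 15.4 and 15.4 CPM in the double knockout, with a log2 fold change of 0.33 ± 0.131 SE (edgeR adjusted p = 0.314). Unlike Sv2b, it was not low in replicate 3.

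The Rab3 GTPases, which tether vesicles through RIM, all had fitted values below 0, and 0 of the 3 were called in edgeR. An unadjusted p under 0.05 was found for 2, and DESeq2 called both, Rab3a and Rab3c, lower. Of all genes, 50.5% were below 0, 2.68% were called in edgeR, 13.3% had an unadjusted p under 0.05 and DESeq2 called 4.92%. Rab3a, the major form, was at 115.2, 100.02 and 108.8 CPM in the wild type and at 91.3, 93.8 and 87.9 CPM in the double knockout. There was no overlap, and the log2 fold change was -0.25 ± 0.0599 SE (edgeR adjusted p = 0.0803). Rab3c was at 257.4, 223.1 and 234.2 CPM in the wild type and at 206.7, 197.4 and 163.7 CPM in the double knockout, with a log2 fold change of -0.33 ± 0.0916 SE (edgeR adjusted p = 0.126). Without replicate 3 the value was -0.23. Rab3b was scarce and overlapped between groups, at 8.31 to 9.44 and 6.43 to 8.97 CPM.

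The 8 active zone genes, which build the release site, held 0 genes called in edgeR, 0 at an unadjusted p under 0.05 and 0 called in DESeq2. The shares of all genes were 2.68%, 13.3% and 4.92%. The median log2 fold change of the 8 was 0.0085. Bsn and Pclo encode the giant scaffolds Bassoon and Piccolo. Bsn was at 147.1, 131.9 and 167.9 CPM in the wild type and at 156.1, 156.4 and 148.0 CPM in the double knockout, all within the wild-type range. Its 95% interval of -0.14 to 0.23 leaves room for a change of less than 1.5-fold in either direction. Pclo was at 99.7 to 124.6 and 100.03 to 125.3 CPM. The Munc13 genes encode the priming factors. Unc13a, the main form of excitatory and many inhibitory synapses, was at 133.0, 125.5 and 130.2 CPM in the wild type and at 122.8, 120.4 and 97.0 CPM in the double knockout, a log2 fold change of -0.19 (95% interval -0.39 to 0.0028) with an edgeR adjusted p of 0.384, and of -0.085 without replicate 3. Unc13b was held more tightly, at 105.3 to 110.3 and 105.9 to 113.0 CPM, with an interval of -0.072 to 0.14. Unc13c, known from the cerebellum, was at 9.34 to 11.3 CPM in the wild type and at 12.1, 10.6 and 4.34 CPM in the double knockout. The RIM genes encode scaffolds that bind Rab3 and calcium channels. Rims2 was at 79.1 to 82.0 and 74.6 to 83.0 CPM, with an interval of -0.14 to 0.11. Rims1 and Rims3 also overlapped between groups, with log2 fold changes of -0.24 and 0.098, and without replicate 3 of -0.087 and 0.23.

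Levels can be set side by side only per kb of exon, since longer transcripts yield more reads. In the wild type the tested genes ranged from 0.0959 CPM per kb (Syt12) to 55.9 CPM per kb (Syt11). Rab3a, Vamp2 and Cplx2 followed at 48.5, 43.7 and 43.6 CPM per kb, and their library ranges overlapped (44.9 to 51.7, 40.5 to 45.2 and 41.2 to 47.8), so their order is not resolved. Syt11, at 54.6 to 57.4, lay above all 3. In the double knockout Cplx2 was first at 70.1 CPM per kb, with libraries from 64.2 to 74.7, narrowly above Syt11 at 62.6 with libraries from 61.1 to 63.9. By mean, Syt6 went from rank 19 to rank 26 of 38, the untested Cplx3 included, and Syt13 from rank 25 to rank 21. Library ranges of neighbours overlapped, such as Syt6 at 4.81 to 6.13 and Rims3 at 4.93 to 5.82 in the wild type. These ranks are therefore not exact. Snap25, a standard marker of mature neurons, ranked 15 in the wild type at 9.07 CPM per kb, close to Syp at 9.62 and Bsn at 9.35, whose library ranges overlapped its own. These lengths are exon unions from GENCODE M21, which also include exons of isoforms not used in this tissue.

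**Figure D4:**
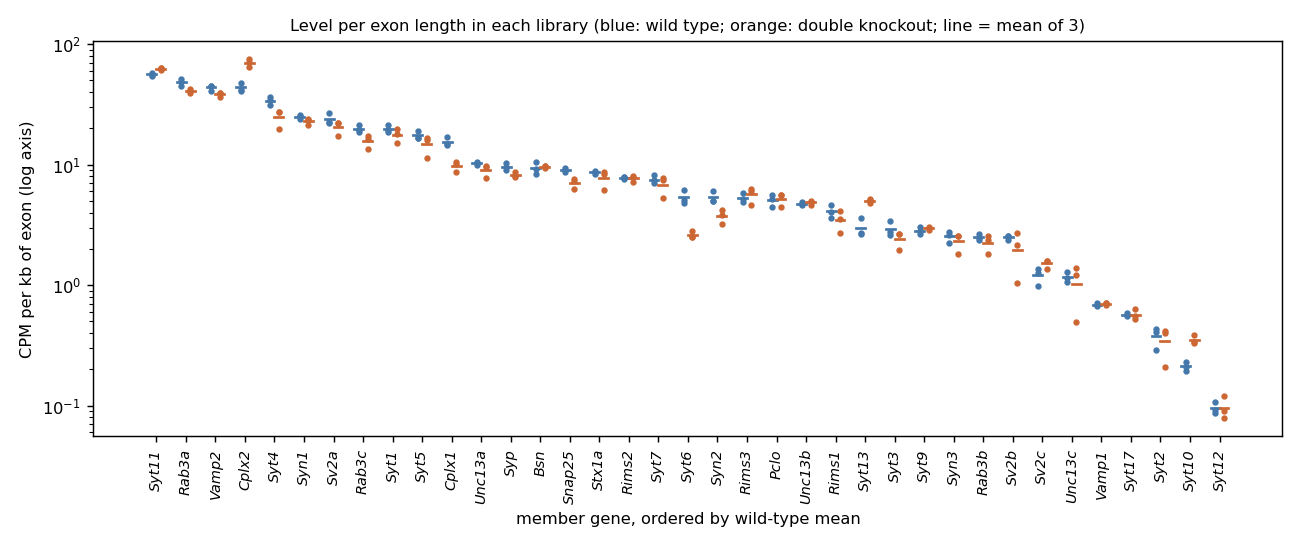
CPM per kb of exon (log axis) of the 37 tested genes in each library, ordered by the wild-type mean, wild type in blue and double knockout in orange, with the mean of 3 libraries as a line. Cplx2 moves from 43.6 to 70.1 CPM per kb and becomes the highest, and Syt6 falls from 5.35 to 2.60.

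Other genes of the vesicle cycle were taken as 4 lists of 71 names, of which 68 were tested. In these lists 0 genes were called higher and 2 lower, both of them vesicular transmitter transporters, against 2.68% of all genes. Slc32a1, which encodes the transporter that loads GABA and glycine, was at 38.3, 42.4 and 40.1 CPM in the wild type and at 5.05, 6.56 and 5.12 CPM in the double knockout. It fell to 13.9% of the mean wild-type level, a log2 fold change of -2.85 ± 0.113 SE (edgeR adjusted p = 6.83e-06), and it is also 1 of the 4 GABAergic neuron genes above. Slc18a2, which encodes the vesicular monoamine transporter VMAT2, was at 54.1, 54.9 and 59.2 CPM in the wild type and at 16.7, 17.6 and 17.7 CPM in the double knockout. It fell to 30.9% of the mean wild-type level, a log2 fold change of -1.70 ± 0.0635 SE (edgeR adjusted p = 5.50e-06). The 2 transporter genes had larger changes than any of the 37 release genes. Opposite-strand genes overlap 24.9% of the exon bases of Slc32a1 and 2.12% of those of Slc18a2. The glutamate transporter gene Slc17a6 did not pass over all libraries, at 58.6 to 62.1 CPM in the wild type and 71.4, 75.0 and 42.3 CPM in the double knockout. Without replicate 3 it was called higher, with a log2 fold change of 0.28 ± 0.0486 SE (edgeR adjusted p = 0.0184). Its relative Slc17a7 did not overlap between groups, at 19.5 to 25.0 and 13.9 to 18.8 CPM, and had an edgeR adjusted p of 0.116.

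The other 3 lists held 0 called genes in edgeR. Their counts stand beside 13.3% of all genes at an unadjusted p under 0.05 and 4.92% called by DESeq2. Of 17 tested paralogues of the listed genes, 6 had an unadjusted p under 0.05, and 1, Rab3d, was called lower by DESeq2. Their log2 fold changes ran from -0.74 (Syt15) to 0.17 (Vamp3). Of 28 fusion and priming partners, such as the SNARE-recycling ATPase gene Nsf, 6 had an unadjusted p under 0.05, and DESeq2 called 1, Cadps2, lower. Nsf had a log2 fold change of -0.091, and of -0.050 without replicate 3. Of 16 endocytosis genes, 6 had an unadjusted p under 0.05, and DESeq2 called 1, Bin1, lower. Over the 68 genes 54 had a fitted value below 0, against 50.5% of all genes, with a median of -0.11. Without double knockout replicate 3, 49 of 68 were below 0, against 12338 of 24230 genes, with a median of -0.049. The summed level of the 38 release genes overlapped between groups, at 2504 to 2746 CPM in the wild type and 2662, 2614 and 2359 CPM in the double knockout. Replicate 3 was the only library below the wild-type range, and it was also the lowest in the pan-neuronal sum and the highest in the progenitor sum. The other neuronal lists went the other way among double knockout libraries. Replicate 3 was highest in the GABAergic sum, at 322.1 CPM against 304.5 to 311.9, and in the cortical excitatory sum, at 1344 CPM against 1260 to 1264. Bcl11b is the largest part of the cortical excitatory sum. The part of neuron content in the values of the release genes was not tested.

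**Figure D5:**
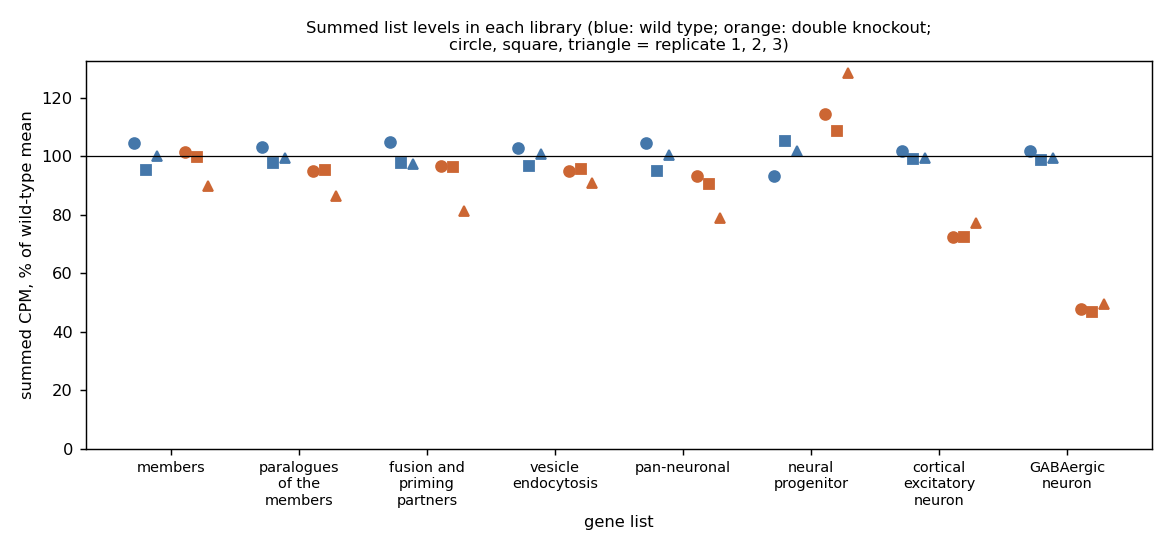
Summed CPM of 8 gene lists in each library, as a percentage of the wild-type mean, with replicates 1, 2 and 3 as circle, square and triangle. Double knockout replicate 3 is the lowest library for the release genes (members, 89.9%), their partners (81.3%) and the pan-neuronal genes (79.0%), and the highest for the progenitor genes (128.5%), whereas the 3 double knockout libraries lie between 46.7% and 49.4% for the GABAergic genes.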

How the data were processed

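RNA of 6 ganglionic eminence samples was sequenced from stranded, ribosomal RNA-depleted total RNA libraries, per the labels' protocols. The authors deposited whole-number read counts per gene, made with featureCounts on GRCm39 per the submitters' processing notes. The aligner, annotation release and strand setting are not given in the sources used here. All 6 value columns were used. Sample titles gave the groups.

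The filter on low counts was filterByExpr (minimum count 10, minimum total 15) of edgeR 4.0.16 (R 4.3.3), followed by TMM scaling and edgeR's quasi-likelihood test (prior count 0.125). Fits were tested on simulated data. CPM values are TMM-normalised. Standard errors are the coefficient over the square root of F. A count of 3, taken as the floor, equals 0.0428 to 0.0530 CPM by total count, and covers counting error only.

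Exon lengths and overlaps came from GENCODE M21 (GRCm38), a different build from the counts, which held 94.1% of the identifiers. Overlaps may differ in the authors' annotation. Members and lists were chosen with earlier results of these data known. Full values are given for each called gene, for the most abundant uncalled gene of each role and for up to 8 called genes per vesicle cycle list. Other genes whose library values are given were chosen after their values were seen. Alternatives were DESeq2 1.42.0, limma-voom (limma 3.58.1), other scalings and filters, the replicate block, a Y-linked covariate and leaving out each library. One listed name, Tprg1l, matched no symbol of the table.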

Additional observations from a re-analysis of the deposited data

How the results depend on the processing

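Cplx2, Cplx1 and Syt6 kept their direction and their call in all 14 alternatives, with log2 fold changes from 0.64 to 0.75, -0.70 to -0.57 and -1.11 to -0.93. Syt13 lost its call in 4, each leaving out 1 library (wild-type replicate 2 or 3, or double knockout replicate 1 or 2). Snap25 lost it in 8: total count scaling, the filter at a mean of 1 CPM, the Y-linked covariate and the fits without wild-type replicate 1, 2 or 3 or double knockout replicate 1 or 2. The cause was not tested. Among the 37 release genes, DESeq2, which called 4.92% of all genes, called 9, adding Rab3a, Rab3c, Syn2 and Syt4. The fit with no filter, which called 2.31% of all genes, called 8, adding Rab3c, Syn2 and Syt4. Fits without 1 library called 3 to 6, where they called 1.27% to 3.09% of all genes. Among the vesicle cycle lists DESeq2 called 6. Over all genes, DESeq2 called 1162, the Y-linked covariate left 358 and the fits without 1 library called 309 (without wild-type replicate 1) to 749 (without double knockout replicate 3), against 634.

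The titles number replicates 1 to 3 in both groups, without stating that a number marks a shared litter. Deviations of same-numbered libraries correlated at -0.0694, -0.0022 and 0.0018, and no library correlated best with its own number. With the replicate block 7 release genes were called, the 5 and Syn2 and Syt4, 3 genes of the vesicle cycle lists and 690 genes in all (2.92%).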

Other observations

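The listed genes of each paralogue family were also read per kb of exon, as shares of their summed level in a library. Paralogues outside the 38 genes, among them Syt14, Vamp3, Vamp4, Rab3d and Rims4, were not counted, so these are not shares of whole families. Over 8 families and 33 genes, the 3 libraries of each group did not overlap for 14 shares, 8 higher and 6 lower in the double knockout. Of single genes tested, 9.3% did not overlap and were higher and 10.2% lower, but those are levels and not shares. Shares of a family sum to a fixed total, so each moves when another member moves. Syt11 took 34.9% to 39.2% of the synaptotagmin level in wild-type libraries against 41.8% to 49.6% in the double knockout, while the share of Syt4 went from 21.4% to 23.4% down to 15.2% to 18.6%. Both genes missed the threshold on their own. Of the Munc13 level, Unc13a held 62.4% to 64.1% in wild-type and 59.9% to 60.9% in double knockout libraries, and Unc13b 28.1% to 30.4% and 30.9% to 36.3%, where the groups were narrowly apart and neither gene passed on its own. Of the listed VAMP genes, Vamp2 held almost the whole level in both groups, with Vamp1 at 1.48% to 1.63% and 1.70% to 1.89%. Vamp3 and Vamp4, not counted here, were at 12.9 and 5.66 CPM per kb in the wild type, beside 43.7 for Vamp2. Syn2 took 15.1% to 17.6% of the synapsin level in wild-type libraries against 12.4% to 13.9% in the double knockout. Sv2c took 3.78% to 4.90% of the SV2 level in wild-type libraries against 5.31% to 8.05% in the double knockout. Among the listed Rab3 and RIM genes every share overlapped between the groups.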
